A study of Mus musculus with 24 samples.

Results

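The microRNAs of connective tissue and smooth muscle mmu-miR-143, mmu-miR-145, mmu-miR-199a-3p, mmu-miR-199a-5p and mmu-miR-214 (written below without the species prefix) were followed by quantitative PCR through 3 mouse tumour cell lines and mouse bone marrow. They were chosen by assay name, all 5 were on the cards, and they are 5 of the 584 miRNA assays on the cards. The groups were PYS, an adherent, epithelial-like teratocarcinoma line; L-1210, a lymphocytic leukaemia line grown in suspension; M1, a myeloid leukaemia line; and CT-BM, marrow flushed from mouse femur and tibia. Each group had 3 replicates, and its RNA was spread over both cards, A and B. The lines were collected at passage 3, no group received a treatment, and the labels give neither the strain nor the age of the mice. The title calls CT-BM stem cells, while its growth protocol describes a suspension culture, so whether the marrow was cultured before RNA extraction is not settled by the labels. Each line is a single established line, and nothing states that the replicates came from separate cultures or animals, so the p-values rest on a spread that may be technical.

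A microRNA is a short RNA that guides Argonaute proteins to messenger RNAs, mainly through the bases of its seed near the 5′ end, and lowers their translation and stability. miR-143 and miR-145 are made from 1 transcript, are abundant in smooth muscle and fibroblasts, and promote the contractile state of smooth muscle; they are often low in tumour cell lines. miR-199a and miR-214 are also made together, from the non-coding RNA Dnm3os, which is expressed in mesenchyme during skeletal development and whose locus is bound by the transcription factor Twist1. Marrow holds stromal cells, vessel-wall cells and blood cells, whereas each line is a culture of 1 cell type.

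The mature RNAs of the miR-199a and miR-214 hairpins are shown because identical and near-identical strands are encoded by different genes of this family, which bears on what an assay can separate. All are from RefSeq, build GRCm38.p6, written 5′ to 3′ with the seed (bases 2 to 8) in capitals.
miR-199a-5p: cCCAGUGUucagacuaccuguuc
miR-199a-3p: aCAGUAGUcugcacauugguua
miR-214-3p: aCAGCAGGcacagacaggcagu
miR-214-5p: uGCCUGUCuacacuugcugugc
miR-761: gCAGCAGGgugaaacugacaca

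The strands of miR-199a are encoded by a pair of genes, in Mir199a-2 (chr1:162217844-162217866 for the 5p strand and chr1:162217883-162217904 for the 3p strand, plus strand) and in Mir199a-1 (chr9:21496537-21496559 and chr9:21496498-21496519, minus strand). The Mir199b hairpin encodes an identical 3p strand at chr2:32318524-32318545 (plus strand), so by sequence the miR-199a-3p assay cannot tell the 3 genes apart. In its other arm, the run of Mir199b at chr2:32318485-32318507 that is closest to miR-199a-5p is shown with its differing base in capitals.
Mir199b arm: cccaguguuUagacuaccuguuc
It keeps the miR-199a-5p seed and differs by C10U, counted from 1 at the 5′ end with the miR-199a-5p base first. The miR-214 assay is read here as the 3p strand (chr1:162223438-162223459, plus strand) and the starred assay miR-214* as the 5p strand (chr1:162223397-162223418, plus strand). Among 1679 mouse mature sequences, miR-761 (chr4:109017669-109017690, plus strand) was the 1 other with the miR-214-3p seed, and its assay was undetermined in all 12 replicates.

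In RefSeq, Mir199a-2 and Mir214 both lie on chromosome 1 within the span of Dnm3os, itself inside the dynamin gene Dnm3, with 5444 bases between the hairpins. Mir199a-1 lies within Dnm2 on chromosome 9 and Mir199b within Dnm1 on chromosome 2. The promoter of Dnm3os is shown because it stands before 2 of the hairpins measured; it covers chr1:162217373-162217672 (plus strand), 250 bases before to 50 after the start of the gene, with the match to a CArG box in capitals.
Dnm3os promoter: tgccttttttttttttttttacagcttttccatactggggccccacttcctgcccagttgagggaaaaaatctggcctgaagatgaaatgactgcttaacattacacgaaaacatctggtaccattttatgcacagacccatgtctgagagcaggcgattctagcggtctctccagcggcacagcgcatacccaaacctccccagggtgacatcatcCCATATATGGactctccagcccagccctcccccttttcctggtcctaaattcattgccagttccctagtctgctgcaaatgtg
A CArG box is the element bound by serum response factor, a regulator of muscle and mesenchymal genes, and its single match lay 33 bases upstream of the start. Of 32851 RefSeq promoters of this length, 1.63% held a CArG box. The E-box, CANNTG, the element that Twist1 and other basic helix-loop-helix factors bind, had 3 matches in this window, and 72.3% of the promoters held at least 1. Both strands were searched, no E-box match overlapped the CArG match, and a match describes the letters alone.

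The unit of the deposited values is the threshold cycle, Ct, the PCR cycle at which a well crosses the detection threshold, so a lower Ct means more of the RNA and 1 cycle is about 2-fold. The reactions ran for 40 cycles, and a well with no Ct is called undetermined. For the tests, each Ct was set against the mean Ct of 3 small nuclear and nucleolar RNAs of the same card (snoRNA202, snoRNA135 and MammU6), and the negative of that difference is the level on a log2 scale. An undetermined well was given the limit of 35 cycles; a fold against a group without any detection is therefore a lower bound. A miRNA was called changed at an adjusted p under 0.05 (limma, with Benjamini-Hochberg adjustment across all assays that entered the comparison) together with a difference of at least 2-fold. In RNA from whole samples, fewer cells of a type and less RNA per cell cannot be told apart.

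Over the whole data set, 4334 of 8969 wells were undetermined, and the 3 controls averaged a Ct of 13.9 ± 0.372 in PYS, 13.8 ± 0.476 in L-1210, 12.5 ± 0.334 in M1 and 14.8 ± 0.278 in CT-BM on card A (SD, n = 3 each). The MammU6 wells of M1 replicate 2 on card A spanned 3.23 cycles, against at most 1.57 in any other card run. The mean MammU6 Ct of M1 minus that of CT-BM was -2.17 on card A and -0.78 on card B. Blood markers (miR-223, miR-142-3p, miR-142-5p and miR-150) were detected in every replicate for 4 of 4 assays in L-1210, M1 and CT-BM and for 3 of 4 in PYS, where their summed level was 0.00036 to 0.000499, against 2.81 to 3.17 in CT-BM (2 to the power of the level, so 1 equals the controls). Embryonic stem cell and teratocarcinoma markers were detected in every replicate for 5 of 5 assays in PYS and for 2 of 5 in each of the other groups. Their mean Ct ran from 15.7 (miR-295) to 20.0 (miR-302a) in PYS. The detected 2 lay near the limit of 35 cycles in L-1210 (miR-295 at 32.9, miR-302a at 33.8). The same held in M1 (miR-295 at 32.7, miR-302b at 34.1). In CT-BM they were miR-294 at 28.0 and miR-302a at 33.7. The whole table changed widely: 38.7% of 362 assays were called lower and 39.8% higher in PYS against CT-BM, 45.6% of 333 lower and 22.5% higher in L-1210 against CT-BM, and 44.3% of 325 lower and 25.2% higher in M1 against CT-BM. Under 6 ways of scaling, the share of these calls that were higher ran between 37.8% and 66.3% in PYS, between 14.9% and 63.9% in L-1210 and between 24.5% and 55.5% in M1, where the 3 controls gave 50.7% in PYS, 33.04% in L-1210 and 36.3% in M1.

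Of the 5 members, miR-143 and miR-214 gave a signal in bone marrow alone, miR-145 was lower in PYS and M1 than in marrow and undetermined in L-1210, miR-199a-3p was lower in PYS by a wide margin, and miR-199a-5p was undetermined in every replicate of every group and was tested in no comparison. Against CT-BM the fit called lower 4 of the 4 members that entered it in PYS, where 38.7% of all tested assays were, 4 of 4 in L-1210, where 45.6% were, and 4 of 4 in M1, where 44.3% were. These counts are a description and no support for a shared direction: miR-143 and miR-214 in each line, and miR-145 in L-1210, entered the fit only through CT-BM, the group in which they are high, and could only come out lower. For such undetermined members the line's value is the assigned limit of 35 cycles and its spread is that of the controls, so the bound is given with no p-value. The 3 comparisons share the CT-BM replicates, so their values stand side by side and are not independent of one another.

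**Figure D1:**
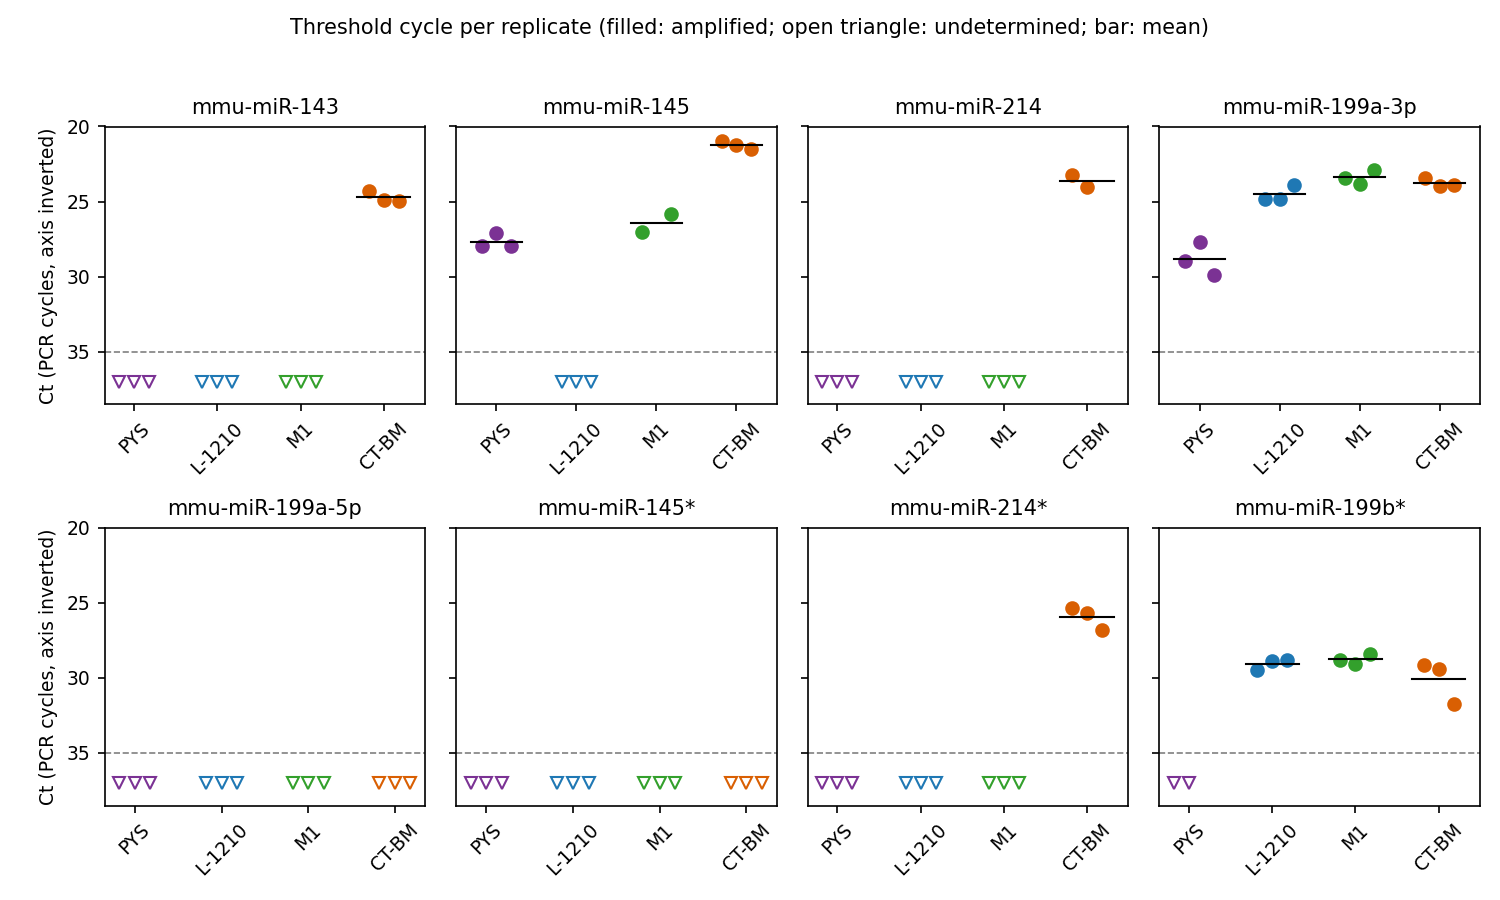
Threshold cycle (Ct, PCR cycles, inverted axis) of the 5 members and of 3 further assays of the same hairpins or family in each replicate of PYS, L-1210, M1 and CT-BM. Filled points are amplified replicates, bars their mean, open triangles below the dashed limit of 35 cycles undetermined replicates, and an absent point a replicate without a well; miR-143 and miR-214 have filled points in CT-BM alone.

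In RefSeq, the genes Mir143 and Mir145a lie within the long non-coding RNA gene Carmn. mmu-miR-143, which acts with miR-145 in smooth muscle differentiation, was undetermined in all 3 replicates of PYS, of L-1210 and of M1, and amplified at a Ct of 24.3, 24.9 and 25.0 in CT-BM. Its CT-BM mean was 24.7 ± 0.361 cycles (SD, n = 3), well before the limit. The difference was therefore a bound in each line: at least 2391-fold lower in PYS against CT-BM, at least 2495-fold in L-1210 and at least 6375-fold in M1, with the 3 controls as scale. Under the 6 scalings the smallest bound was 840-fold in PYS, 745-fold in L-1210 and 1163-fold in M1. The larger bound in M1 goes with its earlier control Ct, since an undetermined well sits farther below controls that amplify sooner.

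mmu-miR-145, the partner encoded beside miR-143, was detected more widely. It had a Ct of 28.0, 27.1 and 28.0 in PYS, was undetermined in all 3 replicates of L-1210, had 27.0 and 25.8 in replicates 1 and 3 of M1 (replicate 2 had no well for it), and had 21.0, 21.2 and 21.5 in CT-BM. CT-BM was thus earliest by several cycles and did not overlap PYS or M1, while L-1210 gave no signal. Expressed as levels, these are -13.82 ± 0.25 in PYS (SD, n = 3), -13.87 ± 0.40 in M1 (n = 2) and -6.42 ± 0.25 in CT-BM (n = 3).

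Against CT-BM, miR-145 was 168-fold lower in PYS (log2 change -7.40 ± 0.29 SE, limma adjusted p = 1.26e-10) and 175-fold lower in M1 (-7.45 ± 0.32, adjusted p = 7.26e-10, fitted without the absent replicate). Under the 6 scalings these folds ran from 59.2 to 685 in PYS and from 47.0 to 247 in M1, all past the threshold. In L-1210 miR-145 was at least 27954-fold lower with the 3 controls, and the smallest bound over the scalings was 8349-fold. Of the 584 assays, 9 were detected in CT-BM, PYS and M1 and in no replicate of L-1210, miR-145 among them. The other strand of its hairpin, miR-145*, was undetermined in 12 of 12 replicates.

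Between the lines, 1 of 2 tested members was called lower and 1 higher in PYS against L-1210, where 27.6% of 351 assays were lower and 45.9% higher. In PYS against M1, 1 of 2 was called lower and 0 higher (27.3% and 46.0% of 341 assays). In L-1210 against M1, 1 of 2 was called lower and 0 higher (30.7% and 25.2% of 306 assays). miR-145 was at least 166-fold higher in PYS against L-1210 and at least 160-fold lower in L-1210 against M1 with the 3 controls, with smallest bounds of 31.7-fold and 63.4-fold over the scalings; in both it entered the fit only through the line that detected it.

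For PYS against M1 the miR-145 log2 change was 0.054 ± 0.32 (limma adjusted p = 0.886), with a 95% interval of -0.65 to 0.76; these 2 lines did not differ beyond their spread with the 3 controls as scale. The sign and call of that difference varied with the scale: 1.15 with MammU6 alone (adjusted p = 0.0469), -0.95 with snoRNA135 alone (0.0344, under 2-fold) and -3.86 with quantile normalization (2.15e-08). The order of miR-145 levels was therefore CT-BM first, PYS and M1 without a settled order, and L-1210 last.

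mmu-miR-214, which is made from Dnm3os and is known for roles in bone and muscle development, had the same pattern of detection as miR-143. It was undetermined in all 3 replicates of PYS, L-1210 and M1 and had a Ct of 23.3 and 24.1 in replicates 1 and 2 of CT-BM, whose replicate 3 had no well for it. Against these 2 replicates, it was at least 4895-fold lower in PYS, at least 5106-fold in L-1210 and at least 13048-fold in M1 with the 3 controls, and the smallest bounds over the scalings were 1975-fold, 1752-fold and 3406-fold in these lines.

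The opposite strand of the same hairpin, miR-214*, is measured by its own assay on card B and had a well in all 12 replicates. It too was undetermined in the 9 replicates of the lines, and its Ct in CT-BM was 25.3, 25.7 and 26.8. Bounds for miR-214* were at least 1251-fold lower in PYS, 1522-fold in L-1210 and 1869-fold in M1 against CT-BM, and at the smallest over the scalings 308-fold, 374-fold and 910-fold. Both strands of the miR-214 hairpin printed above were therefore detected in marrow alone among the 4 groups.

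That pattern was uncommon on the cards. Of 584 assays, 15 were detected in every CT-BM replicate that had a well and in none of the 3 lines, and miR-143, miR-214 and miR-214* are 3 of them. Others in this set include miR-486, a miRNA of red cells and muscle, miR-124, a neuronal miRNA, miR-204 and miR-511; these 4 are also the ones picked out below as most alike. A total of 301 assays were detected in CT-BM and 204 in every group.

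mmu-miR-199a-3p, known as a mesenchymal miRNA that targets among others the kinase mTOR, was the only member detected in all 12 replicates. Its Ct was 28.9, 27.7 and 29.9 in PYS, 24.8, 24.8 and 23.9 in L-1210, 23.4, 23.8 and 22.9 in M1, and 23.4, 24.0 and 23.9 in CT-BM. PYS was latest and overlapped no other group, and the raw Ct of M1 overlapped that of CT-BM. Set against the controls, the levels were -14.96 ± 0.74 in PYS, -10.71 ± 0.24 in L-1210, -10.91 ± 0.54 in M1 and -8.94 ± 0.07 in CT-BM (SD, n = 3 each).

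Relative to CT-BM, miR-199a-3p was 65.0-fold lower in PYS (log2 change -6.02 ± 0.36 SE, limma adjusted p = 2.95e-09), 3.42-fold lower in L-1210 (-1.77 ± 0.36, adjusted p = 0.00064) and 3.93-fold lower in M1 (-1.97 ± 0.36, adjusted p = 0.000277). It was also 19.0-fold lower in PYS against L-1210 (-4.25 ± 0.36, adjusted p = 1.08e-07) and 16.6-fold lower in PYS against M1 (-4.05 ± 0.36, adjusted p = 1.77e-07). L-1210 and M1 did not differ beyond their spread (0.20 ± 0.36, adjusted p = 0.645, 95% interval -0.58 to 0.98). Among the members it is the one that was higher in the leukaemia lines than in the teratocarcinoma line, whereas miR-145 was higher in PYS than in L-1210.

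The differences of miR-199a-3p in the leukaemia lines were of the size of the choice of control. In L-1210 against CT-BM its log2 change was -0.031 with MammU6 alone (limma adjusted p = 0.964), -1.88 with snoRNA135 alone, -3.41 with snoRNA202 alone, -0.65 with the mean of commonly detected assays (0.0689) and -0.98 with quantile normalization (0.000376, under 2-fold). For M1 against CT-BM it lay between -0.80 with quantile normalization, under 2-fold, and -2.29 with snoRNA202 alone. For PYS against CT-BM it lay between -4.51 and -7.53 and was called under each scale. These scales also shifted the median of all tested assays, between -2.47 and 1.05 in L-1210, between -1.03 and 0.46 in M1 and between -0.84 and 1.84 in PYS.

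**Figure D2:**
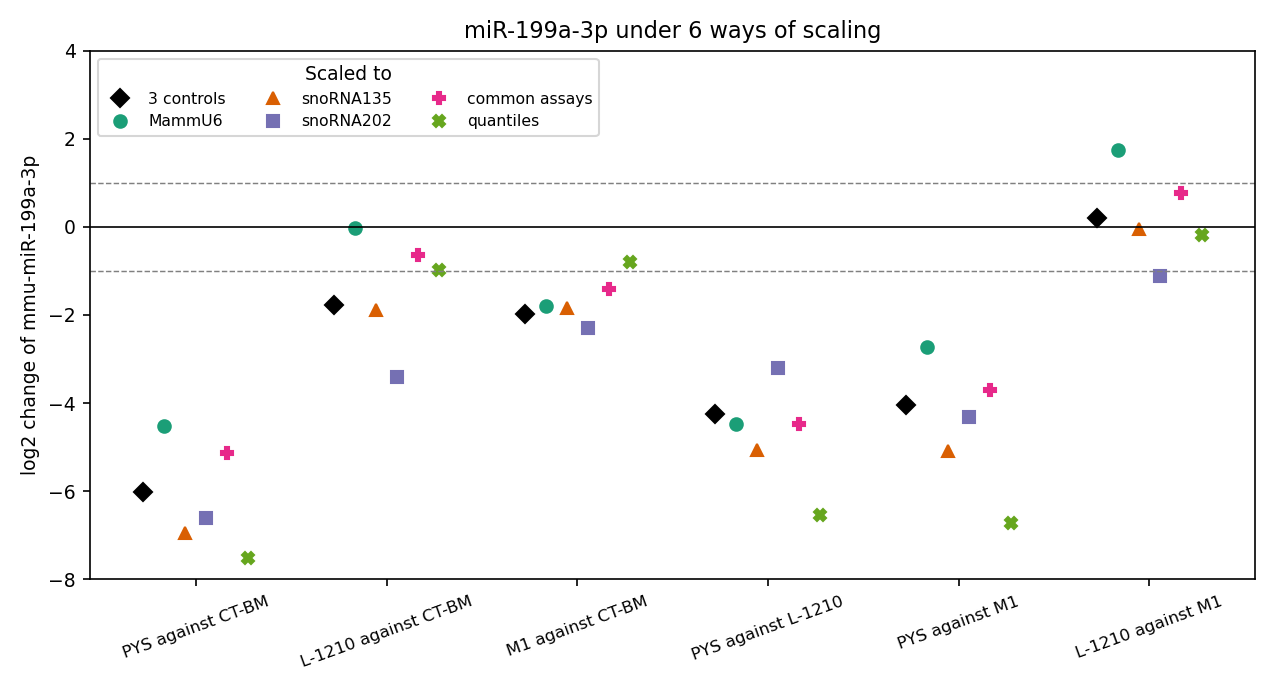
Log2 change of miR-199a-3p (vertical axis) in each of the 6 comparisons under 6 ways of scaling, with dashed lines at a 2-fold difference. Every scaling puts PYS at least 2-fold below CT-BM, L-1210 and M1, while L-1210 against CT-BM ran from -0.031 to -3.41 and L-1210 against M1 fell on both sides of 0.

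mmu-miR-199a-5p, the strand of the same hairpins that is printed first above, gave no Ct in any of the 12 replicates, including the CT-BM replicates in which the 3p strand amplified at 23.4 to 24.0 cycles. Of the 584 assays, 204 were detected in no replicate of any group, miR-199a-5p among them. Whether its assay can amplify its target was not tested, so the values do not show a difference between the strands. The further family assay, miR-199b*, the starred strand of the Mir199b hairpin in the older naming, was on card B. It was undetermined in replicates 1 and 2 of PYS (replicate 3 had no well), and its Ct was 29.5, 28.9 and 28.8 in L-1210, 28.8, 29.1 and 28.4 in M1, and 29.1, 29.4 and 31.7 in CT-BM. It was at least 66.6-fold lower in PYS against CT-BM (without the absent replicate), at least 47.1-fold lower against L-1210 and at least 47.0-fold lower against M1, and at the smallest over the scalings 16.7-fold, 28.3-fold and 24.2-fold.

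In the leukaemia lines, miR-199b* did not pass the test against CT-BM. Its log2 change was -0.50 ± 0.41 in L-1210 (limma adjusted p = 0.278, 95% interval -1.40 to 0.40) and -0.50 ± 0.41 in M1 (adjusted p = 0.281). CT-BM replicate 3 was the latest of that group, and without it the changes were -1.05 in L-1210 (adjusted p = 0.00504) and -1.05 in M1 (0.00498), both past the threshold. With MammU6 alone miR-199b* was higher in L-1210 (1.52, adjusted p = 0.0283), its change was 0.27 when scaled to common assays, and with quantile normalization it was higher in L-1210 (2.16) and M1 (2.41). In detection by group, miR-199b* followed miR-199a-3p in being weakest in PYS and did not follow miR-214.

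**Figure D3:**
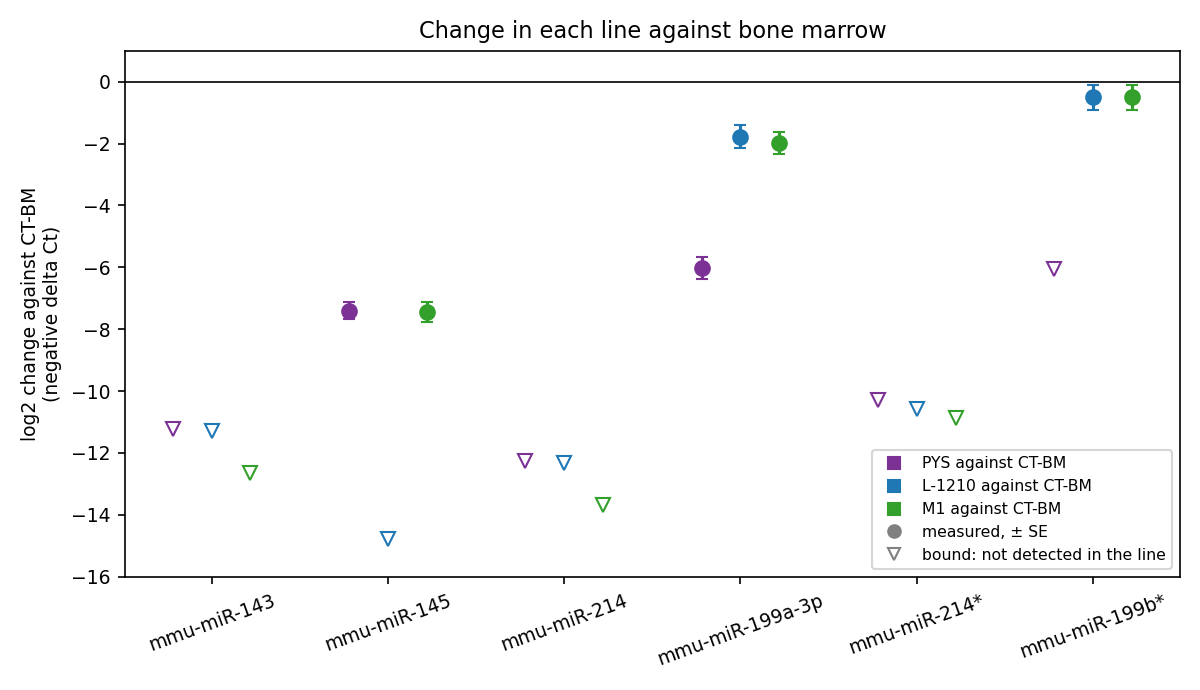
Log2 change in PYS, L-1210 and M1 against CT-BM (vertical axis, negative delta Ct) for the 4 tested members, miR-214* and miR-199b*. Circles with bars are measured changes ± SE, and open triangles are bounds where the line had no detection; the bounds lie at -6.06 or below, and miR-199b* in L-1210 and M1 lies at -0.50.

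The assays most like each member over the replicates, by Pearson correlation of the level among 274 candidate assays, are given as a description. All share the same groups, and each is scaled to the control mean of its own card. That is card B for rno-miR-664 and miR-206, and card A for the members and the other assays named here. For miR-143 they were miR-486, miR-124 and miR-204, each with r = 1.000 over 12 replicates, and for miR-214 they were miR-204, miR-511 and miR-124, each with r = 1.000 over 11. Those assays were undetermined in every line, so the fixed limit sets most of the agreement. For miR-145 they were rno-miR-664 (r = 0.973), miR-140, a cartilage miRNA (0.970), and miR-206, a skeletal muscle miRNA (0.933), over 11 replicates. For miR-199a-3p they were miR-322 (0.981), miR-181c (0.968) and the blood miRNA miR-142-5p (0.962) over 12.

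A list of 13 further miRNAs known from stromal and mesenchymal cells were counted for comparison. In PYS against CT-BM, 8 of 13 were called lower and 2 higher, beside 38.7% and 39.8% of all assays. In L-1210 against CT-BM, 9 were called lower and 1 higher (45.6% and 22.5% of all), and in M1 against CT-BM 9 were lower and 0 higher (44.3% and 25.2%). All 13 were detected in CT-BM, and 2 of them in L-1210 and 4 in M1 entered the fit only through it. Their medians were -2.32 in PYS, -1.42 in L-1210 and -9.73 in M1, beside medians over all tested assays of 0.081, -0.82 and -0.59. In PYS the split moved with the scale, to 4 lower and 4 higher with MammU6 alone and to 9 lower and 0 higher with snoRNA135 alone. In L-1210 it moved to 6 lower and 4 higher with MammU6 alone and to 12 lower and 0 higher with snoRNA202 alone.

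miR-218, which is encoded within the Slit genes, was lower in all 3 lines against CT-BM, 567-fold in PYS (log2 change -9.15 ± 0.41, limma adjusted p = 1.39e-10), 798-fold in L-1210 (-9.64 ± 0.41, adjusted p = 1.99e-10) and 2005-fold in M1 (-10.97 ± 0.41, adjusted p = 5.17e-11). miR-125b-5p, which is abundant in mesenchymal cells and in blood stem cells, was 18.5-fold lower in PYS (-4.21 ± 0.40, adjusted p = 9.09e-07) and 861-fold lower in L-1210 (-9.75 ± 0.40, adjusted p = 6.2e-10). The mean Ct of miR-125b-5p in L-1210 was 32.6. Its folds over the scalings ran from 6.49 to 59.4 in PYS and from 257 to 2672 in L-1210. miR-31 fell 24.4-fold in PYS (-4.61 ± 0.30, adjusted p = 7.3e-09) and 889-fold in M1 (-9.80 ± 0.30, adjusted p = 5.42e-12) and was 2.92-fold higher in L-1210 (1.54 ± 0.30, adjusted p = 0.000438). It thus moved in both directions against CT-BM with the 3 controls. With snoRNA202 alone its change in L-1210 was -0.091 (limma adjusted p = 0.794). Over the scalings the miR-31 folds ran from 8.58 to 46.2 in PYS and from 72.6 to 1108 in M1.

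miR-29a, whose targets include collagen messages, was 51.1-fold lower in PYS (log2 change -5.67 ± 0.20, limma adjusted p = 1.24e-11), with values of -0.33 in L-1210 (adjusted p = 0.141) and 0.31 in M1 (0.159) that did not pass; in L-1210 the value ran from -1.96 with snoRNA202 alone to 1.41 with MammU6 alone, both called. miR-497, a member of the miR-15 and miR-16 seed family, was undetermined in L-1210 and M1. With the 3 controls it was at least 1660-fold and at least 3601-fold lower there than in CT-BM. Its smallest bound over the scalings was 438-fold in L-1210 and 438-fold in M1. In PYS miR-497 was 2.55-fold higher than in CT-BM (1.35 ± 0.29, limma adjusted p = 0.0011). miR-22, which is widely expressed, was 3.63-fold higher in PYS (1.86 ± 0.27, limma adjusted p = 2.61e-05), 2.67-fold lower in L-1210 (-1.42 ± 0.27, adjusted p = 0.000382) and 9.71-fold lower in M1 (-3.28 ± 0.27, adjusted p = 1.65e-07). The higher calls in PYS were lost for miR-497 with snoRNA135 alone (0.56) and snoRNA202 alone (0.83) and for miR-22 with snoRNA135 alone (0.68) and quantile normalization (0.94). In L-1210 the miR-22 change was 0.61 with MammU6 alone (adjusted p = 0.262) and -0.65, under 2-fold, when scaled to common assays.

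miR-335-5p was undetermined in both leukaemia lines, at least 332-fold lower in L-1210 and at least 849-fold lower in M1 against CT-BM, and its log2 change of 0.83 in PYS was under 2-fold. miR-152 and miR-100 were undetermined in M1, at least 9509-fold and at least 26600-fold lower than in CT-BM, and miR-152 in PYS was at 0.73, also under 2-fold. Absence of signal in a leukaemia line was thus also seen outside the members, while all 13 of these miRNAs were detected in PYS, where miR-143 and miR-214 were not.

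**Figure D4:**
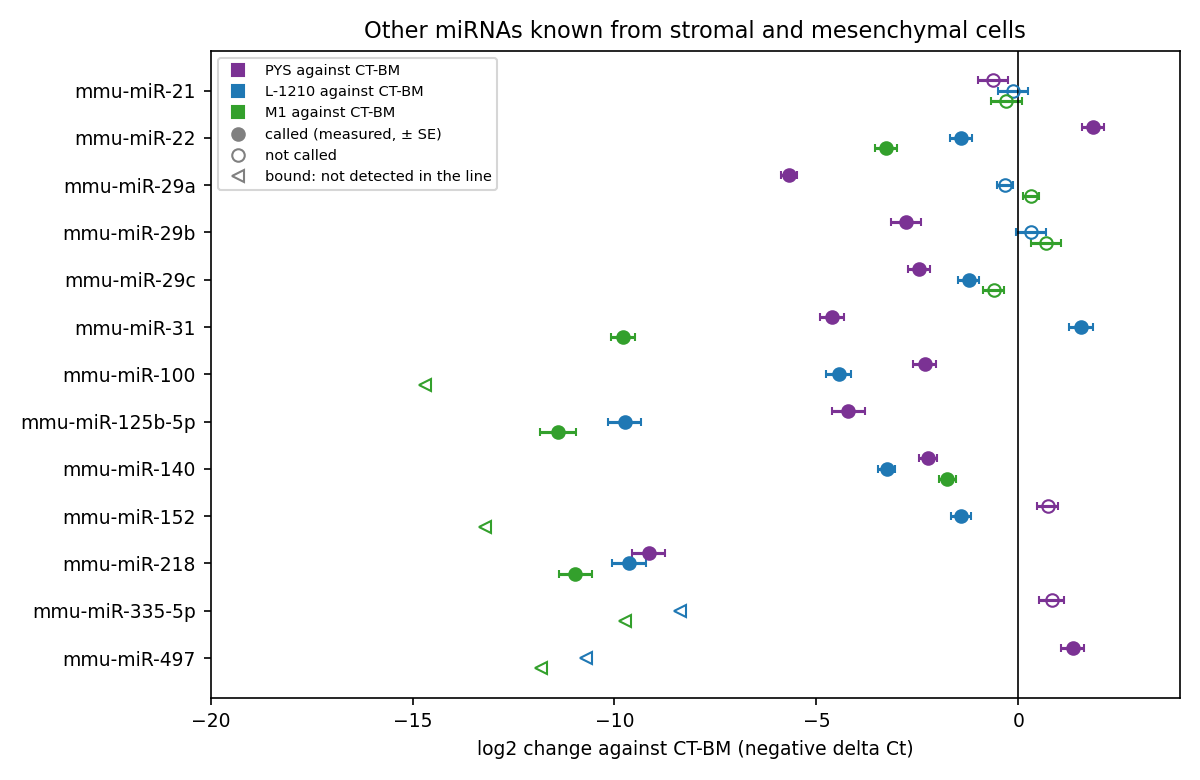
Log2 change against CT-BM (horizontal axis, negative delta Ct) of 13 other stromal and mesenchymal miRNAs in PYS, L-1210 and M1. Filled circles are called changes ± SE, open circles are changes that were not called, and open triangles are bounds where the line had no detection; miR-218 lies at -9.15 in PYS, -9.64 in L-1210 and -10.97 in M1.

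Lists of markers of other cell types were counted in the same way against CT-BM. Of all tested assays, 38.7% were called lower and 39.8% higher in PYS, 45.6% and 22.5% in L-1210, and 44.3% and 25.2% in M1. As for the members, the counts of these lists are a description. The endothelial assays, miR-126-3p and miR-126-5p, were called lower for 2 of 2 in each line against CT-BM, with a summed level of 0.0261 to 0.0365 in PYS, 0.0296 to 0.0419 in L-1210, 0.0430 to 0.0522 in M1 and 0.280 to 0.311 in CT-BM, and neither was at 0 in any group. Striated muscle assays were called lower for 3 of 3 tested in each line, and miR-133b was undetermined in all groups. miR-1 in L-1210 and M1 and miR-133a in M1 entered the fit only through CT-BM and could only come out lower. Among the striated muscle assays, miR-133a was the strongest in marrow. Its mean Ct was 28.3 ± 0.327 in PYS (SD, n = 3), 27.9 ± 0.0355 in L-1210 (n = 2, 1 well absent) and 18.8 ± 0.586 in CT-BM (n = 3). It had no detection in M1, and its level in CT-BM was -4.004 ± 0.34. miR-1 and miR-206, which have a well in all 12 replicates, summed to 1.03e-05 to 1.81e-05 in PYS, 1.21e-06 to 3.71e-06 in L-1210, 2.65e-06 to 5.46e-06 in M1 and 0.000208 to 0.000233 in CT-BM; this sum leaves out miR-133a.

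Erythroid assays were called lower for 2 of 2 in each line, beside the shares of all tested assays given above. miR-486 in each line and miR-451 in L-1210 and M1 entered the fit only through CT-BM. miR-144 of the list is not on the cards. miR-486 was undetermined in all lines and lay at 0.000851 to 0.00118 of the controls in CT-BM (level -9.97 ± 0.23, SD, n = 3). miR-451 had a level of -13.55 ± 0.26 in PYS (Ct 27.4), was undetermined in L-1210, amplified at Ct 34.99 in 1 of 2 M1 replicates with a well, and had a level of -5.97 ± 0.07 in CT-BM. Blood assays were called lower for 4 of 4 in PYS, 3 of 4 in L-1210 and 4 of 4 in M1. In PYS miR-142-5p entered the fit only through CT-BM. The summed level of the blood assays was 0.0299 to 0.133 in L-1210 and 0.232 to 0.270 in M1, against 2.81 to 3.17 in CT-BM. Of 5 epithelial assays (miR-200a, miR-200b, miR-200c, miR-141 and miR-429), 2 were called lower in each line. In PYS and in L-1210, 1 was called higher, and 0 in M1. Their medians were -0.45 in PYS, 0.10 in L-1210 and -0.57 in M1. miR-141 in PYS entered the fit only through CT-BM. The 3 members with a well in all 12 replicates summed to 1.92e-05 to 5.36e-05 in PYS, 0.00049 to 0.000659 in L-1210, 0.000335 to 0.00065 in M1 and 0.00284 to 0.00322 in CT-BM, which rests on miR-143 and miR-199a-3p because miR-199a-5p is at 0 and leaves out miR-145 and miR-214, each absent from 1 replicate. The part of these cell types in the members' differences was not tested.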

How the data were processed

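Per the labels' protocols, the authors used a mirVana kit to extract total RNA, preamplified it and ran it on 2 TaqMan rodent miRNA cards for 40 cycles. The 24 GEO samples are 12 replicates on 2 cards. The deposited values are Ct in PCR cycles (unit: other), not normalized, per the file headers; analysis software and its version are not given in the sources used here. No per-sample column was left unused (0).

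Wells of an assay on a card were averaged, and undetermined wells or Ct over 35 were set to 35. An assay was detected where at least 50% of its wells amplified within 35 cycles. Levels were negative delta Ct against the 3 controls. All assays were fitted as 4 group means over 12 replicates by lmFit and eBayes of limma 3.58.1 (R 4.3.3); absent wells were left out. An assay was tested in a comparison if it was detected in every replicate with a well of at least 1 of the groups compared. Tables were made with Python 3.11.15, pandas 2.3.3, numpy 2.4.6 and matplotlib 3.10.9.

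Replicate number limits the precision; no read depth applies. Replicates with the same number were checked for pairing: their deviations correlated between -0.453 and 0.334 over 187 assays, and 3 of 18 pairs exceeded 0.1. Replicates of unlike number were not compared, so this check cannot decide whether the numbers pair samples. The main fit used no pairing. The members and lists were chosen with earlier results of these data known. All members and further assays of the same hairpins are named, with up to 4 of the other stromal miRNAs per comparison with CT-BM by moderated t, and the 3 assays most like each member. The values of miR-22 in the 3 lines, miR-31 and miR-29a in L-1210, miR-29a, miR-218 and miR-335-5p in M1 and miR-152, miR-335-5p and miR-497 in PYS were given after they were seen. After seeing the data, the same alternatives were applied to the other strands and the named values of stromal miRNAs. Those of miR-152 and miR-335-5p in PYS were left out. Alternatives covered scaling, Ct limits, filters, fits, fold minimum and leaving out each replicate.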

Additional observations from a re-analysis of the deposited data

How the results depend on the processing

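Of 47 log2 changes of members, other strands and stromal miRNAs, 35 kept their direction and call under the 24 alternatives run. The other 12 are miR-199a-3p and miR-199b* in L-1210 and in M1 against CT-BM, miR-145 in PYS against M1, miR-199a-3p in L-1210 against M1, and, against CT-BM, miR-22 in PYS and in L-1210, miR-497 in PYS, miR-31 in L-1210 and miR-29a in L-1210 and in M1. In L-1210 against CT-BM, miR-22 was 0.61 with MammU6 alone, miR-31 was -0.091 with snoRNA202 alone, and miR-29a was 1.41 with MammU6 alone, 0.80 with common assays and 0.57 with quantile normalization. miR-29a in M1 was -0.0054 with snoRNA202 alone. With MammU6 alone, 2 members were called in PYS against M1 and 2 in L-1210 against M1, where the main count is 1 in each, and miR-199b* was 1.52 in L-1210 and 0.54 in M1 against CT-BM. snoRNA202 alone gave 2 members in L-1210 against M1, and quantile normalization gave 2 in PYS against M1. Without the detection filter 4 members were called in each of these comparisons, since assays undetermined in both lines then differ by their control Ct. miR-145 in PYS against M1 was -0.95 with snoRNA135 alone, -0.040 with snoRNA202 alone, -3.86 with quantile normalization and between -0.23 and 0.34 with a replicate left out (-0.048 without PYS replicate 2, -0.23 without M1 replicate 1). miR-199a-3p in L-1210 against M1 was -0.041 with snoRNA135 alone, -1.12 with snoRNA202 alone (adjusted p = 0.00393), 1.76 with MammU6 alone (0.0161), -0.19 with quantile normalization and between -0.11 (without M1 replicate 2) and 0.36 with a replicate left out. miR-199b* against CT-BM was 0.27 in L-1210 with the mean of common assays, 2.16 in L-1210 and 2.41 in M1 with quantile normalization, and -2.15 in L-1210 and -1.27 in M1 with snoRNA202 alone. The counts of called members did not change with any replicate left out: 4 in each line against CT-BM, 2 in PYS against L-1210, 1 in PYS against M1 and 1 in L-1210 against M1. With the replicate block no call of a member changed, and miR-145 in PYS against M1 was -0.10. Apart from the filter, the cause of these changes was not tested. Bounds move with the scaling, as given beside them, and with the Ct limit by construction: miR-143 in L-1210 against CT-BM was -8.28 at a limit of 32 and -16.28 at 40.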
